A study of Mus musculus with 6 samples.

Results

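The genes described here were 34 neuropeptide precursors of the midbrain and hypothalamus, chosen by symbol from the 24054 genes of the table, and all 34 were found in it. They were measured by RNA-seq in the substantia nigra (SN) of 3 MitoParks and 3 littermate controls on a C57BL/6 background, untreated and aged 16 to 17 weeks by the labels. MitoParks carried Dat +/Cre: TFAM LoxP/LoxP, so that Tfam, which encodes mitochondrial transcription factor A, was removed in cells that express the dopamine transporter. Littermate controls carried TFAM +/LoxP: Dat +/+, so that both groups had at least 1 floxed Tfam allele. Cre was expressed from the Dat locus, so that neurons without the transporter were not targeted, and MitoParks had 1 intact Dat allele where littermate controls had 2. The labels give the tissue as brain, and the study's methods give it as dissected SN. The mice are called controls 1 to 3 and MitoParks 1 to 3 by the numbers in their labels. Levels are in CPM, expected counts of reads scaled to a common library size.

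Neuropeptides are cut from larger precursor proteins by convertases in dense-core vesicles and act mostly on G protein-coupled receptors. Vasopressin and oxytocin are made chiefly by magnocellular neurons of the hypothalamus, and melanin-concentrating hormone and orexin by neurons of the lateral hypothalamus, which lies in front of and above the SN. Other peptides are made within the midbrain itself, among them cholecystokinin in many dopaminergic neurons. Dynorphin and substance P reach the SN in fibres whose cell bodies lie in the striatum.

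The level of several of these genes turned on which mouse was measured more than on the group. Of the 34 genes, 26 averaged more than 1 CPM in 1 group or in both and were tested, and the other 8 were Ucn, Cort, Nms, Nmu, Kiss1, Gnrh1, Calcb and Rln3. None of the 26 passed the cutoffs for a call, a fold change above 1.5 with an unadjusted p below 0.05, in edgeR's quasi-likelihood test. A supplementary figure of the study lists Avp, Pdyn, Penk and Tac1 among upregulated genes of its top pathways, which differs from this result. The cutoffs behind that figure are not stated with it, and the source of the difference was not tested. Over all 14568 genes tested, 0.577% were called, with 0.378% higher and 0.199% lower in MitoParks. The smallest Benjamini-Hochberg adjusted p among the 26 was 0.999, and 2 of them, Cck and Adcyap1, had an unadjusted p below 0.05, beside 1.11% of all genes. In DESeq2 and in edgeR's exact test 2 of the 26 also had a p below 0.05, and in limma-voom 1 had, and none of these tools called any of the 26, with no p given for Avp by DESeq2. The median log2 fold change was 0.03 over the 26 genes, with 15 higher and 11 lower, and -0.0047 over all genes tested.

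**Figure D1:**
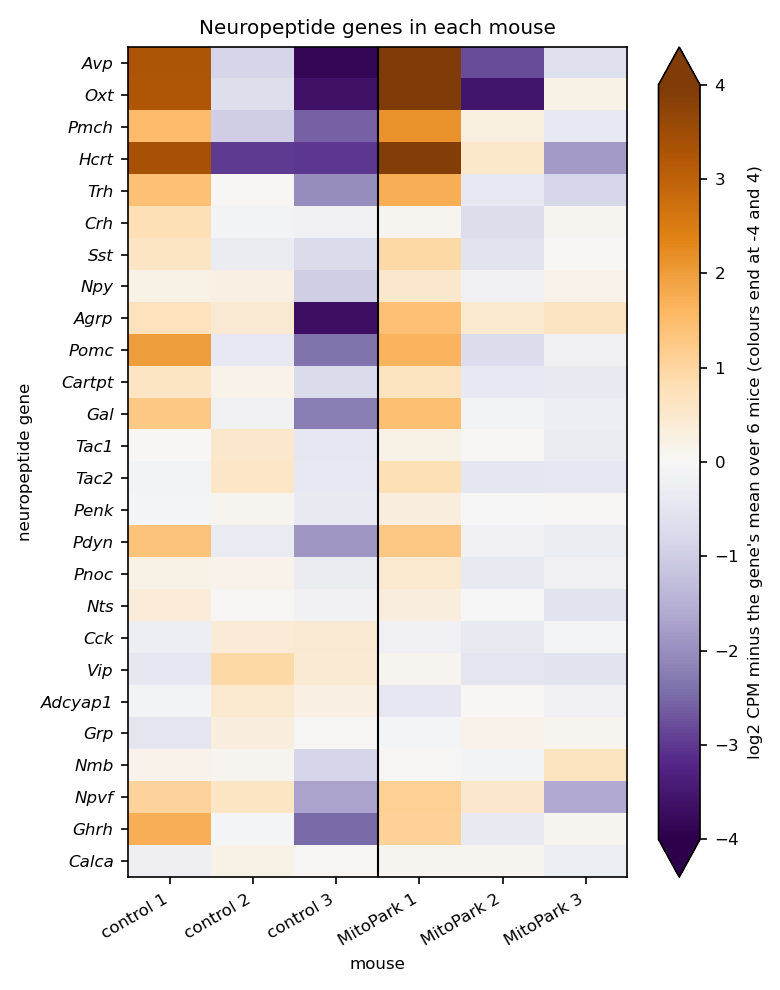
Each row is 1 of the 26 tested neuropeptide genes, each column is 1 mouse, and the colour is the log2 CPM minus the gene's mean over the 6 mice. Control 1 and MitoPark 1 were the 2 highest mice for 15 of the 26 genes, and control 3 was the lowest for 17.

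Some sequences bear on how these genes were counted. The transcripts of Avp and Oxt, which lie next to each other on chromosome 2 with 3565 bases between the genes, held an identical coding stretch of 127 bases, 22.0% of the 577 bases of Avp-201 and 23.6% of the 537 bases of Oxt-201. It is printed because it is nearly as long as the 150-base reads, so that a read can lie almost wholly inside it. The stretch covers the last 2 bases of exon 1 and 125 bases of exon 2 of each gene, at chr2:130581133-130581257 on the minus strand for exon 2 of Avp and at chr2:130576591-130576715 on the plus strand for exon 2 of Oxt (GRCm38, GENCODE M21).
Avp and Oxt, shared: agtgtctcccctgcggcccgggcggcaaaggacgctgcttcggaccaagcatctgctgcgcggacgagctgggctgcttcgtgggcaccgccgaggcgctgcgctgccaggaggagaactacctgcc
The expected counts of Avp were not whole in 2 mice, 119.56 in control 1 and 326.78 in MitoPark 1, while their sums with those of Oxt were 220 and 528. These 2 sums were whole, within 0.011, so the split of reads between both genes was an estimate in these mice. In the other 4 mice the counts of both genes were already whole, so their sums say nothing of a split. The level of each gene is therefore uncertain where the reads were divided, and their sum is not touched by the split.

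Pmch also shared reads with another gene. Pmch lies at chr10:88091072-88092375 on the plus strand, and 435 of its 749 exonic bases, 58.1%, also lie in exons of Parpbp, a DNA repair gene on the minus strand. The expected counts of Pmch were whole in 0 of 6 mice and their sums with Parpbp were whole in all 6. Pmch took between 98.1% and 99.7% of these sums. The library kit marked the strand, but whether the counting used it is not given in the sources used here.

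Promoters from RefSeq (GRCm38.p6) were matched for 27 of the 34 genes. In the 250 bases before the start, searched on both strands, the letters TATAAA of the TATA box were found for 8 genes, Adcyap1, Ghrh, Hcrt, Npvf, Pmch, Pomc, Rln3 and Vip, and in 12.4% of all 32851 promoters. The letters TGACGTCA of the cAMP response element were found for Cartpt, Sst and Ucn, and in 1.55% of all promoters. A gene was counted when any of its promoters held the letters, while the shares are of single promoters, so the units differ. These motifs cannot overlap each other, and neither was found for Avp or Oxt. The last 120 bases before the start are shown for 3 genes whose levels spread widely over the mice and for 2 whose levels spread less, with the motif in capitals. They lie at chr10:88090952-88091071 on the plus strand for Pmch, chr11:100762932-100763051 on the minus strand for Hcrt, chr12:3954825-3954944 on the plus strand for Pomc, chr16:23890845-23890964 on the minus strand for Sst and chr13:99900684-99900803 on the minus strand for Cartpt.
Pmch: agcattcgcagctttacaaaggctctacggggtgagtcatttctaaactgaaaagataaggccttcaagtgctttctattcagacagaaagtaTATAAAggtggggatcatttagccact
Hcrt: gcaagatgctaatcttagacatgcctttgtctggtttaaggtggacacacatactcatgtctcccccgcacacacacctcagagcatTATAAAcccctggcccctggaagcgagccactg
Pomc: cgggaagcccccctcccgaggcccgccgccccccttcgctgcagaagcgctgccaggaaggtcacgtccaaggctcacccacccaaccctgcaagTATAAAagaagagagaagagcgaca
Sst: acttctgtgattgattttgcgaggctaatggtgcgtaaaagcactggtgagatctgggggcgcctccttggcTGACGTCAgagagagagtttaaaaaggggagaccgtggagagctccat
Cartpt: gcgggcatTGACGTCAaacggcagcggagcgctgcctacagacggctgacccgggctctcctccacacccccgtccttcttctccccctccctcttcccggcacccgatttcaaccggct
The genes with the TATA box letters included some whose levels spread 10-fold or more over the mice, such as Hcrt, and some that did not, such as Adcyap1.

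Pmch, the precursor of melanin-concentrating hormone, was the most abundant of the 34 genes per length of transcript. Its mean over the 6 mice was 700 ± 700 CPM per kb (SD, n = 6), followed by Hcrt at 104 ± 149, Sst at 85.3 ± 40.1 and Penk at 61.7 ± 8.83 CPM per kb. The SD of Hcrt exceeded its own mean, so its place above Sst and Penk rested on few mice, and its median of 19.8 CPM per kb lay below theirs of 71.6 and 62.1. Cort, a somatostatin-like peptide, stood last at 0.0729 ± 0.121 CPM per kb. The CPM of all 34 genes together summed to 1866, 853 and 517 in controls 1 to 3, against 2511, 934 and 769 in MitoParks 1 to 3. Pmch alone made up between 10.2% and 48.8% of this sum in littermate controls and between 31.3% and 55.8% in MitoParks. Without Pmch the sums still ran from 464 to 955 CPM in littermate controls and from 529 to 1110 CPM in MitoParks.

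In single mice, Pmch was at 912, 160 and 52.7 CPM in controls 1 to 3, against 1401, 382 and 241 CPM in MitoParks 1 to 3. The mice numbered 1 were the highest of their groups, and the groups overlapped because control 1 lay above MitoParks 2 and 3. The group means were 375 ± 468 CPM in littermate controls and 675 ± 633 CPM in MitoParks (SD, n = 3 each), a log2 fold change of 0.85 with a standard error of 0.92, which did not pass the test (edgeR's quasi-likelihood p = 0.378; exact two-sided permutation p = 0.4). In bulk tissue, a difference in the number of cells of a type and a difference in the RNA that each holds cannot be told apart. Hcrt, the precursor of the orexins, was at 136, 1.71 and 1.66 CPM in controls 1 to 3, against 204, 19.5 and 3.74 CPM in MitoParks 1 to 3. Again both mice numbered 1 stood far above the rest, and the other littermate controls lay below every MitoPark. The log2 fold change of Hcrt was 0.71 with a standard error of 1.504 (edgeR's quasi-likelihood p = 0.647; exact two-sided permutation p = 0.5).

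Avp, the precursor of vasopressin, which acts on water balance and social behaviour, was at 13.4, 0.759 and 0.0976 CPM in controls 1 to 3, against 39.8, 0.202 and 0.906 CPM in MitoParks 1 to 3. Oxt, the precursor of oxytocin, was at 11.1, 0.759 and 0.0976 CPM in controls 1 to 3, against 24.5, 0.101 and 1.36 CPM in MitoParks 1 to 3. For both genes the mice numbered 1 held nearly all of the reads, and control 3 and MitoPark 2 had 1 or 2 expected counts, under the floor of 3 counts, which corresponds to between 0.285 and 0.365 CPM. The log2 fold change was 1.55 with a standard error of 1.51 for Avp and 1.13 with a standard error of 1.42 for Oxt, with exact two-sided permutation p = 0.6 and p = 0.7. Neither difference was larger than the spread between mice.

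**Figure D2:**
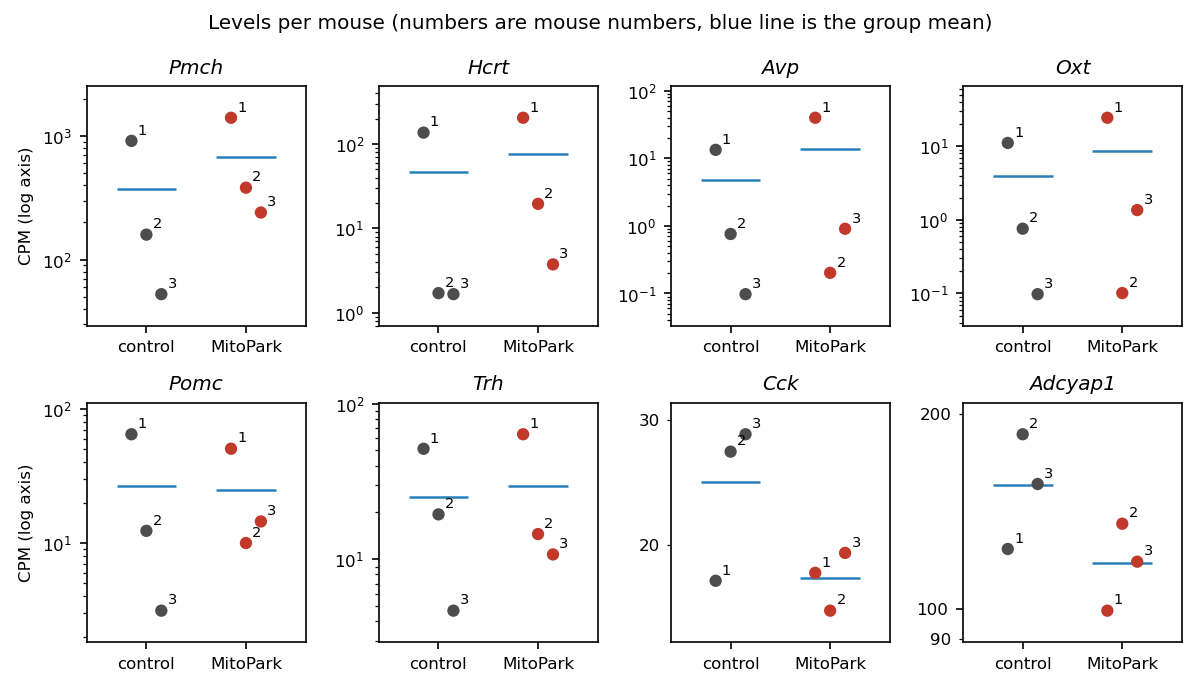
Each panel gives the CPM of 1 gene on a log axis, with 1 point for each mouse, its mouse number beside it and the group mean as a blue line. Mice numbered 1 lead both groups for Pmch, Hcrt, Avp, Oxt, Pomc and Trh, and not for Cck or Adcyap1.

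These results depended on the mice numbered 1. Without control 1, edgeR's quasi-likelihood test called 4 of 27 tested genes higher in MitoParks, Avp at a log2 fold change of 4.92, Hcrt at 5.47, Pmch at 2.67 and Pdyn at 1.37, each with an adjusted p = 1.00 over all genes. In that fit 3 genes were called lower, Cck at -0.63, Ucn at -3.49 and Vip at -0.98, likewise with an adjusted p = 1.00, and 0.912% of all genes were called. Ucn was tested there only because control 1, at 0 counts, was left out, and it passed the minimum through littermate controls alone. Without MitoPark 1 the log2 fold changes turned negative, to -3.07 for Avp, -2.45 for Oxt, -1.98 for Hcrt and -0.27 for Pmch, with no neuropeptide gene called and none past an unadjusted p below 0.05. With both of these mice left out, a choice made after the data were seen, Hcrt at 2.79 and Pmch at 1.56 were called higher, Cck at -0.64, Ucn at -3.01 and Vip at -1.21 were called lower, and 0.794% of all genes were called. That comparison rests on 2 mice in each group, and Ucn entered it through littermate controls alone as well.

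Among the releasing factors and their relatives, Trh, which encodes thyrotropin-releasing hormone, was at 51.3, 19.5 and 4.69 CPM in controls 1 to 3, against 63.6, 14.5 and 10.8 CPM in MitoParks 1 to 3. Sst, which encodes the inhibitory peptide somatostatin, was at 86.6, 45.7 and 33.98 CPM and at 106, 38.9 and 57.5 CPM in the same order. In both genes the mice numbered 1 were the 2 highest of the 6, and the groups overlapped. Their log2 fold changes of 0.24 for Trh and 0.29 for Sst were smaller than their standard errors of 0.79 and 0.40 (exact two-sided permutation p = 0.9 and p = 0.6). Ghrh, for growth hormone-releasing hormone, was at 7.23, 2.09 and 0.391 CPM in controls 1 to 3, against 4.63, 1.72 and 2.38 CPM in MitoParks 1 to 3. Npvf, for RFamide-related peptides, was at 7.23, 5.31 and 1.07 CPM and at 7.55, 4.95 and 1.13 CPM, so that each mouse had a close counterpart of its own number in the other group. Crh, for corticotropin-releasing hormone, lay between 1.62 and 4.45 CPM in all mice.

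The other 4 genes of that group were too low to be tested. Ucn, for urocortin, a relative of corticotropin-releasing hormone, had 0, 13 and 16 expected counts in controls 1 to 3, against 0, 0 and 3 in MitoParks 1 to 3. Its control mean of 0.932 ± 0.824 CPM (SD, n = 3) lay just under the minimum, and all MitoParks were at or under the floor of 3 counts per library. The groups overlapped, since control 1 had no count either. With no filter Ucn was the only neuropeptide gene past both cutoffs, at a log2 fold change of -2.95 in edgeR's quasi-likelihood test (adjusted p = 1.00), a value that depends on the prior count at such low reads, and 0.915% of 19235 genes were called. Kiss1, for kisspeptin, had between 1 and 8 expected counts per mouse, Gnrh1, for gonadotropin-releasing hormone, had between 1 and 7, and Cort had at most 2.

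Of the peptides that act on feeding, Pomc, the precursor of melanocortins and beta-endorphin, was at 65.0, 12.3 and 3.12 CPM in controls 1 to 3, against 50.7, 9.999 and 14.5 CPM in MitoParks 1 to 3. Gal, for galanin, was at 26.5, 9.96 and 2.34 CPM and at 29.7, 10.2 and 9.29 CPM. Agrp, for the melanocortin antagonist agouti-related peptide, was at 2.00, 1.71 and 0.0976 CPM and at 3.29, 1.72 and 1.93 CPM. Control 3 was the lowest mouse for all 5 genes of this group, and the mice numbered 1 were the 2 highest for 4 of them. The exception was Npy, for the appetite-stimulating neuropeptide Y, at 12.3, 12.5 and 5.47 CPM in controls 1 to 3, against 15.2, 9.70 and 12.1 CPM in MitoParks 1 to 3. Cartpt, for a peptide that lowers food intake, ran from 33.1 to 88.7 CPM over the 6 mice. The log2 fold changes of the 5 genes lay between -0.10 for Pomc and 0.86 for Agrp, the latter with a standard error of 0.66, and none passed edgeR's quasi-likelihood test.

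The opioid precursors differed among themselves in how evenly they were measured. Pdyn, the precursor of dynorphins, was at 74.8, 23.2 and 7.81 CPM in controls 1 to 3, against 69.7, 26.4 and 24.5 CPM in MitoParks 1 to 3, a 9.57-fold range. Penk, the precursor of enkephalins, was at 83.7, 94.5 and 69.8 CPM and at 109, 88.3 and 91.7 CPM, a 1.56-fold range. Pdyn had its 2 highest values in the mice numbered 1, while in Penk only MitoPark 1 lay above all littermate controls. Pnoc, for nociceptin, lay between 10.8 and 19.4 CPM. The log2 fold changes were 0.19 for Pdyn, 0.22 for Penk and -0.01 for Pnoc, with exact two-sided permutation p = 0.6, p = 0.3 and p = 0.9.

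The tachykinin precursors did not follow the mice numbered 1. Tac1, the precursor of substance P, was at 71.8, 101.2 and 52.7 CPM in controls 1 to 3, against 81.0, 71.0 and 58.0 CPM in MitoParks 1 to 3. Tac2, the precursor of neurokinin B, was at 16.6, 26.3 and 13.4 CPM and at 30.6, 13.0 and 13.3 CPM. Control 2 had the highest value for Tac1 and MitoPark 1 for Tac2, and the groups overlapped in both. Their log2 fold changes were -0.10 and 0.01, each smaller than its standard error of 0.22 and 0.35.

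The 2 genes with an unadjusted p below 0.05 came from the group of gut and brain peptides. Cck, the precursor of cholecystokinin, was at 17.8, 27.0 and 28.6 CPM in controls 1 to 3, against 18.3, 16.2 and 19.5 CPM in MitoParks 1 to 3. Control 1 lay among the MitoParks, and the other littermate controls lay above all of them. The means were 24.5 ± 5.84 CPM in littermate controls and 17.97 ± 1.68 CPM in MitoParks (SD, n = 3 each), and the log2 fold change of -0.45 with a standard error of 0.185 was under the fold cutoff (edgeR's quasi-likelihood p = 0.0368, adjusted p = 0.999; exact two-sided permutation p = 0.3). The smallest p that such an exact test of 3 mice against 3 allows is 0.1.

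Adcyap1, the precursor of the pituitary adenylate cyclase-activating peptide PACAP, was at 124, 186 and 156 CPM in controls 1 to 3, against 99.4, 135 and 118 CPM in MitoParks 1 to 3. Only control 1 overlapped with the MitoParks. The means were 155 ± 31.1 CPM in littermate controls and 118 ± 17.99 CPM in MitoParks (SD, n = 3 each), with a log2 fold change of -0.40 and a standard error of 0.17 (edgeR's quasi-likelihood p = 0.0382, adjusted p = 0.999; exact two-sided permutation p = 0.2). With control 2, control 3 or MitoPark 1 left out, 0 of the 26 tested genes had an unadjusted p below 0.05, Cck and Adcyap1 included. Vip, for vasoactive intestinal peptide, was at 2.11, 5.41 and 3.81 CPM in controls 1 to 3, against 3.04, 2.02 and 1.93 CPM in MitoParks 1 to 3, a log2 fold change of -0.71 with a standard error of 0.38 (edgeR's quasi-likelihood p = 0.0909; exact two-sided permutation p = 0.2).

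The remaining gut and brain peptides had overlapping groups or were barely counted. Nts, for neurotensin, which acts on dopaminergic neurons, was at 31.6, 25.3 and 22.2 CPM in controls 1 to 3, against 30.6, 24.4 and 17.0 CPM in MitoParks 1 to 3. Grp, for gastrin-releasing peptide, ran from 1.78 to 3.04 CPM and Nmb, for neuromedin B, from 0.781 to 2.27 CPM over the 6 mice. The groups overlapped in each of these 3 genes. Nmu, for neuromedin U, had 5, 7 and 3 expected counts in controls 1 to 3, against 0, 2 and 2 in MitoParks 1 to 3. All MitoParks were under the floor, and the groups did not overlap, at counts too low for a test. Nms, for neuromedin S, had between 1 and 7 expected counts per mouse.

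Of the calcitonin and relaxin relatives, Calca, the precursor of calcitonin and of the vasodilator CGRP, was the most even of all tested neuropeptide genes. It ran from 2.72 to 3.70 CPM over the 6 mice, a 1.36-fold range, with a log2 fold change of -0.04 and a standard error of 0.26. Calcb, for a second form of CGRP, had at most 4 expected counts per mouse. Rln3, for relaxin 3, made mainly in the nucleus incertus of the brainstem, had between 1 and 8.

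**Figure D3:**
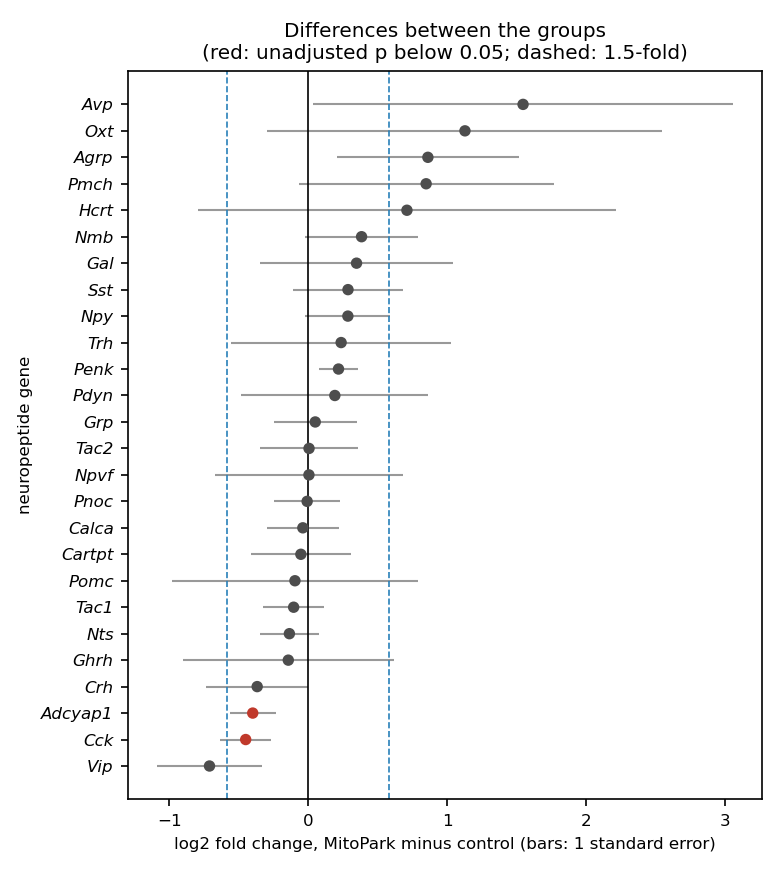
Points are the log2 fold changes of the 26 tested neuropeptide genes, MitoPark minus littermate control, with bars of 1 standard error, and dashed lines mark a 1.5-fold change. Cck and Adcyap1, in red, had an unadjusted p below 0.05 and lie inside the dashed lines, and Avp and Hcrt have standard errors of 1.513 and 1.504.

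Many of these genes had a wide spread over the mice. The highest of the 6 mice was a median of 2.85 times the lowest over the 26 neuropeptide genes and 1.41 times over all 14568 genes tested. A ratio above 10 was found for 9 of the 26 genes, or 34.6%, and for 0.906% of all genes. These 9 were Avp at 408, Oxt at 251, Hcrt at 123, Agrp at 33.7, Pmch at 26.6, Pomc at 20.8, Ghrh at 18.5, Trh at 13.6 and Gal at 12.7. For Avp, Oxt and Agrp the lowest mouse had 1 expected count, so their ratios rest on single reads. Ratios above 2 were found for 69.2% of the neuropeptide genes and 17.0% of all genes. Some other lists of regional genes spread more, with medians of 4.62 for dopaminergic markers and 3.46 for midbrain GABA neurons. Medians were 3.38 for cholinergic and motor neurons, 3.28 for thalamus and 3.21 for hypothalamus. Markers of cortex and hippocampus, at 2.57, and of striatum, at 2.06, spread less than the neuropeptide genes. These shares and medians describe the libraries and were not tested.

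**Figure D4:**
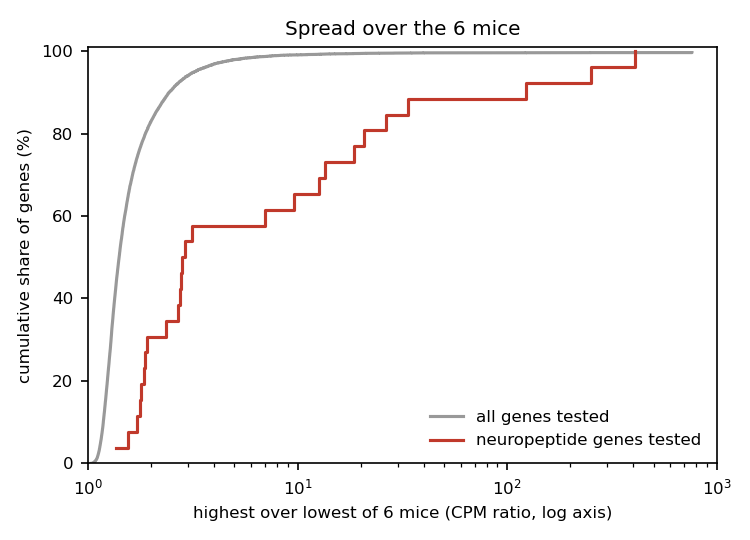
The lines give the cumulative share of genes, in percent, against the ratio of the highest to the lowest of the 6 mice in CPM on a log axis, for all genes tested (grey) and for the 26 tested neuropeptide genes (red). The red line lies to the right of the grey line, with medians of 2.85 and 1.41. Genes with a lowest value of 0 CPM are counted in the total of the grey line and are not drawn.

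The high values fell on the same mice in both groups. Control 1 and MitoPark 1 were the 2 highest mice for 15 of the 26 neuropeptide genes, or 57.7%, and for 12.2% of all genes tested. Control 3 was the lowest mouse for 65.4% of the neuropeptide genes and for 16.7% of all genes. None of the 26 tested neuropeptide genes had groups that did not overlap, and 4.71% of all genes tested had. Without control 1, the groups did not overlap for 8 of 27 genes, beside 14.3% of all genes in that comparison. These were Agrp, Hcrt, Pdyn and Pmch with higher values in MitoParks and Adcyap1, Cck, Ucn and Vip with lower values. Ucn passed the minimum there only through controls 2 and 3, at 1.23 and 1.56 CPM, with control 1 and its 0 counts left out. Its place among the 8 was therefore set by that choice and says nothing more.

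Markers of the hypothalamus moved with these mice in part. Of 19 hypothalamic markers, 17 passed the minimum and 0 were called between the groups. Their CPM summed to between 165 and 245 in littermate controls and to between 170 and 236 in MitoParks, and none was at 0 in every mouse. The mice numbered 1 were the 2 highest for 7 of the 17, or 41.2%, and control 3 was the lowest for 58.8%. The following markers were named after their values were seen, except for Hdc, the gene for histidine decarboxylase and the most abundant of the list. Fezf1, a transcription factor of the ventromedial hypothalamus, was at 18.5, 2.09 and 0.293 CPM in controls 1 to 3, against 24.2, 2.52 and 6.91 CPM in MitoParks 1 to 3. Nr5a1, which encodes SF-1 of the same nucleus, was at 12.5, 0.285 and 0 CPM and at 17.7, 0.606 and 4.08 CPM. Both followed Avp, Oxt and Hcrt in having their 2 highest values in the mice numbered 1. Hdc, in contrast, was at 52.4, 99.6 and 45.6 CPM and at 63.4, 59.5 and 45.8 CPM, and Foxb1, a factor of the mammillary region, was at 24.7, 43.5 and 34.9 CPM and at 16.8, 38.1 and 28.1 CPM. Control 2 was the highest mouse for both of these. Otp, a factor of hypothalamic neuroendocrine neurons, ran from 1.17 CPM in control 3 to 13.4 CPM in MitoPark 1. Other lists held this order of mice too. The mice numbered 1 were the 2 highest for 5 of 11 midbrain GABA markers and 14 of 44 neuropeptide receptor genes. They were so for 3 of 11 striatal and 0 of 9 thalamic markers. Control 3 was the lowest for 3 of 4 cholinergic and motor markers and for 1 of 11 midbrain GABA markers. The part of hypothalamic tissue in the spread of the neuropeptide genes was not tested.

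Genes of other neighbouring tissues were read in the same way. Pituitary hormone genes, named after their values were seen, were present, with Gh for growth hormone at 51.5, 0.854 and 3.12 CPM in controls 1 to 3, against 16.6, 0.404 and 1.02 CPM in MitoParks 1 to 3, and Prl for prolactin at 11.5, 3.13 and 11.9 CPM and at 65.1, 0.808 and 16.5 CPM. The mice numbered 1 were the 2 highest for Gh, and MitoPark 1 was the highest for Prl. Some markers of the serotonergic raphe set another mouse apart. Tph2, for tryptophan hydroxylase 2, was at 23.3 CPM in MitoPark 3 and at or under 0.781 CPM in the other 5 mice, and Slc6a4, for the serotonin transporter, was at 9.40 CPM in MitoPark 3 and at or under 0.190 CPM elsewhere. Of the 5 raphe markers 4 were tested and these 2 were called higher by edgeR's quasi-likelihood test. Both passed the minimum only through MitoPark 3, so their calls rested on that mouse and do not describe the group. They were not tested without it, nor under a filter of CPM above 1 in at least 3 mice. Neither was called by limma-voom, with robust dispersions or without control 1, Tph2 was not called without control 2, and DESeq2 gave no p for either. Gata3, the most abundant raphe marker in controls and shared with midbrain GABA neurons, was at 8.30 CPM in control 3, 5.76 CPM in MitoPark 2 and 9.74 CPM in MitoPark 3, so that it did not set MitoPark 3 apart. The raphe markers had sums of 4.08 to 11.3 CPM in littermate controls and 5.36 to 47.3 CPM in MitoParks. Their part in the neuropeptide values was not tested.

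**Figure D5:**
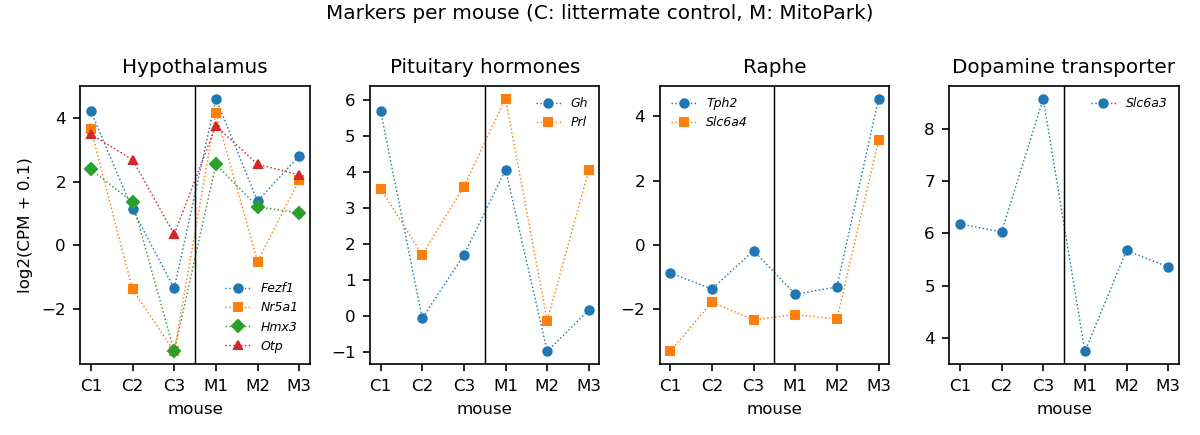
Points give log2(CPM + 0.1) per mouse for markers of the hypothalamus, pituitary hormone genes, raphe markers and the dopamine transporter gene Slc6a3, with littermate controls left and MitoParks right of the line and dotted lines only to guide the eye. Fezf1 and Nr5a1 peak in both mice numbered 1, at 18.5 and 12.5 CPM in control 1, and Tph2 and Slc6a4 are at 23.3 and 9.40 CPM in MitoPark 3 and near 0 in the other mice.

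The mice also differed in dopaminergic markers, within littermate controls as well as between the groups. For the difference between the groups, dissection and genotype cannot be told apart. Slc6a3, which encodes the dopamine transporter and marks the neurons in which Cre was expressed, was at 72.5, 65.2 and 383 CPM in controls 1 to 3, against 13.3, 51.0 and 40.9 CPM in MitoParks 1 to 3, a log2 fold change of -2.30 with a standard error of 0.70 (edgeR's quasi-likelihood test, called, adjusted p = 0.999). Without control 3 this log2 fold change was -0.97, still a call, and with robust dispersions Slc6a3 was not called. The mouse with the most Slc6a3, control 3, had the least Pmch, and the mouse with the least Slc6a3, MitoPark 1, had the most, but control 1 had the next highest level of both genes. Tfam was at 40.3, 44.3 and 45.4 CPM in controls 1 to 3, against 32.6, 33.0 and 33.2 CPM in MitoParks 1 to 3, so that the groups did not overlap. Oligodendrocyte markers, 7 of 7 tested and 0 called, summed to between 6872 and 18207 CPM in littermate controls, lowest in control 1 and highest in control 3, and to between 9423 and 15470 CPM in MitoParks, lowest in MitoPark 1. Of 21 dopaminergic markers, 2 were called, Slc6a3 and Foxa1, both lower. Foxa1, a transcription factor of these neurons, was not called by limma-voom, with robust dispersions or without control 2, control 3, MitoPark 1 or MitoPark 3. No gene was called among the markers of striatum, thalamus, cortex and hippocampus, cholinergic and motor neurons, midbrain GABA neurons, choroid plexus, astrocytes, microglia, endothelium and neurons. In total, the libraries held between 8140777 and 10528602 expected counts. Control 1 and MitoPark 2 had reads of the Y-linked gene Ddx3y at 117 and 168 CPM, and the other mice at most 0.0976 CPM, so that the 2 mice with the highest neuropeptide levels differed in this gene.

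The genes that make and release neuropeptides were measured more evenly and gave no call. Of 23 convertases, granins and vesicle genes, all were tested, 6 were higher and 17 lower, and 0 passed both cutoffs or had an unadjusted p below 0.05 in edgeR's quasi-likelihood test, and DESeq2, edgeR's exact test and limma-voom called none. Their median log2 fold change was -0.04, and their highest mouse was a median of 1.36 times the lowest. Examples named after their values were seen are Cpe, for carboxypeptidase E, which trims peptides after cleavage, at 1984 to 2481 CPM over the 6 mice, and Scg2, for secretogranin 2, at 910 to 1441 CPM. Vgf, a granin-like precursor, was at 329, 227 and 168 CPM in controls 1 to 3, against 378, 181 and 156 CPM in MitoParks 1 to 3. The mice numbered 1 were the 2 highest for Vgf and for 6 of the 23 genes in all. Pcsk1, a convertase, was at 75.0, 67.1 and 51.2 CPM in controls 1 to 3, against 65.1, 69.1 and 29.8 CPM in MitoParks 1 to 3, and did not follow this order.

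Neuropeptide receptors likewise gave no call, whereas the study's supplementary figure lists Mchr1, Oprd1 and Tacr1 among upregulated genes. Of 54 receptor genes and receptor partners, 44 were tested, 17 were higher and 27 lower, and 0 passed both cutoffs or had an unadjusted p below 0.05 in edgeR's quasi-likelihood test, and the same other tools called none. Their median log2 fold change was -0.11, and their highest mouse was a median of 1.93 times the lowest. Groups that did not overlap were found for 4 of the 44, beside the 4.71% of all genes, Mchr1, Sstr4, Nmbr and Kiss1r, which were named after their values were seen. Nmbr passed the minimum only through the MitoParks, where it was higher, with means of 1.55 CPM in them and 0.955 CPM in littermate controls. Mchr1, the receptor of melanin-concentrating hormone, was at 11.6, 13.0 and 10.4 CPM in controls 1 to 3, against 9.50, 8.99 and 8.72 CPM in MitoParks 1 to 3. Every MitoPark lay below every littermate control, at a log2 difference of -0.36 with a standard error of 0.16 (edgeR's quasi-likelihood p = 0.05004; exact two-sided permutation p = 0.1). Its highest value was in control 2 and not, as for its ligand's gene Pmch, in a mouse numbered 1. Adcyap1r1, the PACAP receptor, was at 294 to 375 CPM in littermate controls and at 322 to 400 CPM in MitoParks. Calcr, the calcitonin receptor, was at 36.6, 23.1 and 6.44 CPM and at 35.2, 20.9 and 18.1 CPM in the same order of mice, with its 2 highest values in the mice numbered 1.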

How the data were processed

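Polyadenylated RNA was sequenced by the authors as 150-base single-end reads. Reads were aligned by the authors to the UCSC transcript set with Bowtie2 2.1.0, and RSEM 1.2.15 gave the expected counts per gene, which they deposited unnormalized. The processing notes name a human build, and the methods name a RefSeq build for a second alignment but none for this one, so coordinates come from GENCODE M21 and RefSeq. RPKM values that the methods describe were not analysed here.

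After rounding of the expected counts, genes averaging more than 1 CPM in either group were kept, and TMM normalization and the quasi-likelihood test of edgeR 4.0.16 (R 4.3.3) were used on all 6 mice with group as the only term. A call needed a fold change above 1.5 with an unadjusted p below 0.05, and the methods name these cutoffs without the kind of p, while a second paragraph on another alignment gives an adjusted p below 0.05. Benjamini-Hochberg adjustment ran over all 14568 tested genes. Exact permutation tests used log2(CPM + 0.1). Lengths are those of the longest GENCODE transcript. The fit was tested on simulated data. DESeq2 1.42.0, limma 3.58.1, other normalizations and filters, a replicate block and the omission of single mice were alternatives.

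No pair of libraries of a group agreed within sampling noise. Floors of 3 counts cover counting error only, since reads carried no molecular identifiers. Named were all members, list genes past both cutoffs and the most abundant marker of a neighbouring tissue, and the text says where a gene was chosen after its values were known. A result that this rule would name is not reported here. The members and lists were chosen with earlier results of these data known.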

Additional observations from a re-analysis of the deposited data

How the results depend on the processing

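The absence of calls among the neuropeptide genes held under both other normalizations, the stricter filter, DESeq2, edgeR's exact test, limma-voom and robust dispersions. With no filter 1 gene, Ucn, was called lower, and Nmu was the 1 gene whose groups did not overlap. Leaving out 1 mouse at a time gave between 0 and 4 genes called higher, between 0 and 3 called lower and between 0 and 8 whose groups did not overlap. All of these calls, and the 8 genes, came without littermate control 1. Ucn, among them, passed the minimum there only through the remaining littermate controls. Without both mice numbered 1, added after the data were seen, 2 were called higher, 3 lower and 8 had groups that did not overlap, where 24.7% of all genes did. Among processing genes, leaving out 1 mouse gave between 0 and 1 call, Mme without MitoPark 2, and among receptors between 0 and 2, which were Ramp3 without littermate control 2, Npy5r and Crhbp without littermate control 3, Kiss1r without MitoPark 1 and Crhbp without MitoPark 2, each lower in MitoParks. The sample titles link the mice of both groups only by their numbers, and whether same-numbered mice shared anything else was not tested. Deviations of same-numbered mice correlated at 0.352, -0.0695 and 0.277. For littermate controls 1 and 3 the MitoPark of the same number correlated best. Littermate control 2 correlated best with MitoPark 1, at 0.119. With the number as a replicate block, 3 neuropeptide genes were called higher, Pmch at a log2 fold change of 1.34 (edgeR's quasi-likelihood test, adjusted p = 0.412), Hcrt at 1.39 and Avp at 1.28 (each with an adjusted p = 1.00), and 0.865% of all genes were called. Of 412 log2 fold changes of single neuropeptide genes under alternatives, 52 had the other sign, in 20 genes and none of them a call, 13 became calls in the same direction, and the causes were not tested. With 3 mice a group and 1 expected count in the lowest mouse for Avp, Oxt and Agrp, the depth limits what can be said of these genes.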
